A study of Homo sapiens with 12 samples.

Results

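The change in gene expression after knock-down of the lncRNA RP11-19E11.1 was compared between the breast cancer cell lines MDA-MB-468 and HCC38. For each gene, the log2 fold change of knock-down over control in HCC38 was subtracted from that in MDA-MB-468. This difference between the responses of the lines is called the interaction here, and it is above 0 where a gene rose more, or fell less, in MDA-MB-468. All genes were taken, without selection, and 8 of the 12 libraries of the series entered the difference. Of 63677 genes counted, 21325 had enough counts to be tested, and the response differed for 5711 of them.

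The 4 groups were MDA-MB-468 LNA NS, MDA-MB-468 RP19 KD, HCC38 LNA NS and HCC38 RP19 KD, with 2 libraries each. LNAs are short antisense oligonucleotides with locked sugars that direct the cutting of a matching RNA in the nucleus. RP19 KD cells received LNA1 and LNA2 against the lncRNA at 50 nM, LNA NS cells a non-targeting LNA. In both treatments the transfection took place at seeding, the medium was replaced after 6 h, and RNA was taken at 24 h, as polyA RNA for strand-specific libraries. Both are established lines, MDA-MB-468 kept in DMEM/F12 and HCC38 in RPMI, so that the line and its medium cannot be told apart, and each line stands for 1 tumor. No source gives a batch or date, or states that replicate libraries were grown apart. The p-values therefore weigh differences against the spread of these libraries, which may be technical. The remaining 4 libraries are of SUM149PT, another basal-like line, whose own response served for reference. It entered no subtraction.

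Cells that prepare to divide switch on genes in 2 waves. E2F transcription factors, held in check by the RB protein, drive the genes of G1/S and DNA replication, while the DREAM, B-MYB and FOXM1 complexes time the genes of G2 and mitosis. Mitotic transcripts therefore accumulate in cells that have passed S phase, and their level in a culture follows how its cells are spread over the cycle.

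Gene counts ran from 35415688 to 51819824 in the 8 libraries, and replicates differed by far more than counting error in every group. MDA-MB-468 showed its known losses, with RB1 at 0.736 to 2.5 CPM (read counts scaled to library size with TMM factors, as in all levels below) against 65.2 to 85.8 in HCC38, and SMAD4 at 0.329 to 0.603 against 24.3 to 33.5. Both lines carried epithelial markers (EPCAM at 383 to 586 and 412 to 494). The basal keratins KRT5 (1850 to 2610), KRT14 (16.2 to 26.8) and KRT17 (161 to 171) were higher in MDA-MB-468. HCC38 had KRT5 at 46.2 to 62.9 CPM, KRT14 at 0.368 to 1.64 and KRT17 at 0.512 to 1.46, so that these keratins of the basal label were weak there. The basal marker FOXC1 overlapped between the lines (59.4 to 112 and 37.4 to 60.3). MDA-MB-468 also had the luminal markers GATA3 (52.3 to 71.4, against 39.8 to 47.4 in HCC38) and FOXA1 (53.9 to 61.5, against 1.55 to 4.12). The luminal markers ESR1 and PGR reached at most 7.67 and 0.0531 CPM there. Of the immune markers, CD3D was at 0 in every library and PTPRC at or below 0.0437. The targeted lncRNA (LINC01956 in current annotation, chromosome 2 of GRCh37, 119524541 to 119592686, minus strand) had 29 and 23 counts in MDA-MB-468 controls and 1 and 1 in RP19 KD cells, and 668 and 737 against 81 and 76 in HCC38. It fell in both lines, by 4.75 and 3.09 on the log2 scale, and the difference between them did not pass the test (interaction −1.66, SE 0.71, adjusted p = 0.12). In MDA-MB-468 the ratio rests on few counts (0.0332, exact 95% interval 0.00391 to 0.126, counting error only).

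The responses of the lines were related but far from the same. A gene was called where the quasi-likelihood test of edgeR gave a Benjamini-Hochberg adjusted p under 0.1. The interaction was called for 26.8% of the genes, with 2769 higher in MDA-MB-468 (13.0%) and 2942 lower (13.8%). These shares include many genes with few counts, which are seldom called. Protein-coding genes with at least 1 CPM in the controls of both lines, and control levels within 2-fold, had 20.8% higher and 18.6% lower (n = 7730). Lists of well-expressed genes can thus exceed the shares of all genes through their level alone. More than a 2-fold difference in response was found for 694 genes higher (3.25%) and 1017 lower (4.77%) in MDA-MB-468. Within MDA-MB-468, 5306 genes rose (24.9%) and 5477 fell (25.7%), and within HCC38, 3316 rose (15.5%) and 3927 fell (18.4%). With upper-quartile scaling, which moved the median log2 fold change of all genes from 0.00 to 0.136 in MDA-MB-468 and from 0.008 to 0.133 in HCC38, these numbers became 6630 and 4520 in MDA-MB-468 and 4933 and 2842 in HCC38, so that a rise or fall within a line is relative to that median. The interaction was at 2904 higher and 2877 lower under that scaling. The typical response was larger in MDA-MB-468, with a median absolute log2 fold change of 0.563 against 0.356. These medians include genes near 0 counts in a line, whose fold changes are imprecise. In genes with at least 10 counts in each of the 8 libraries, 4842 rose and 4651 fell in MDA-MB-468. In HCC38, 3503 of them rose and 3186 fell. Counts of calls depend on precision as well as on size, and the median absolute change was not taken in these genes. Across genes, which are not independent replicates, the 2 responses had a Pearson correlation of 0.413 and a Spearman rank correlation of 0.467 (n = 21325). They share no library.

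**Figure D1:**
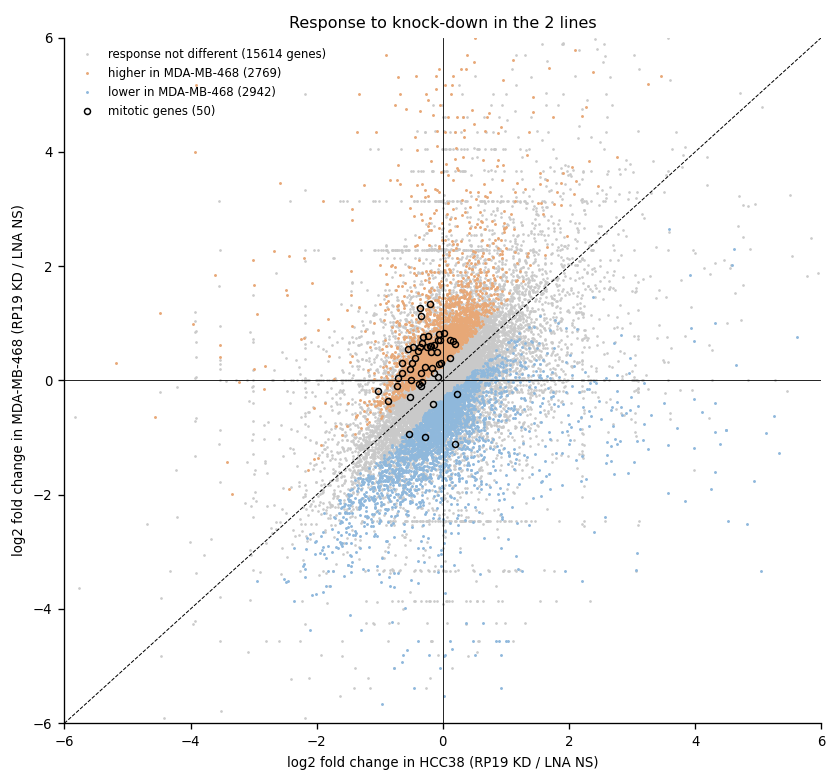
Log2 fold change (RP19 KD over LNA NS) in HCC38 on the x axis and in MDA-MB-468 on the y axis, each point a gene. The dashed line marks equal responses, and 55 genes lie beyond the axis limit of 6. Orange points (2769 genes) had a higher and blue points (2942) a lower response in MDA-MB-468. The open circles are the 50 mitotic genes, most of which lie left of the vertical line and above the dashed one.

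Most differences were of degree or were called in 1 line. Of the 5711 genes, 863 fell in both lines and more in MDA-MB-468, and 499 rose in both and more in MDA-MB-468, whereas 74 and 64 fell or rose in both and more in HCC38. Another 1528 rose and 1388 fell by a call in MDA-MB-468 alone, 377 rose and 353 fell by a call in HCC38 alone, and 117 were called in neither line. Opposite movement was rarer. It held for 448 genes, 244 that rose in MDA-MB-468 and fell in HCC38 (1.14% of the genes tested) and 204 with the reverse (0.957%). Without HCC38 LNA NS replicate 1 or HCC38 RP19 KD replicate 2 the 448 became 186 in each case, and without MDA-MB-468 LNA NS replicate 2 they became 255, so the number moving in opposite directions rests on single libraries.

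The libraries of SUM149PT entered these classes through the filter, the scaling and the shared estimate of spread, but not through the differences. With the 8 libraries of MDA-MB-468 and HCC38 fitted alone, 2566 of the 2769 higher and 2790 of the 2942 lower calls were kept. The response of SUM149PT is another reading of the same knock-down. In SUM149PT, 19.9% of all genes rose and 18.0% fell. Of the 863 genes that fell in both lines and more in MDA-MB-468, 758 fell in SUM149PT and 9 rose, and of the 499 that rose in both, 437 rose and 5 fell. Of the 244 that rose in MDA-MB-468 and fell in HCC38, 105 rose and 17 fell in SUM149PT, and of the 204 with the reverse, 24 rose and 62 fell. Where the 2 lines moved in opposite directions, SUM149PT thus moved more often with MDA-MB-468 than with HCC38, a preference that was not tested. Of the genes called in MDA-MB-468 alone, SUM149PT had 886 risen and 25 fallen among the 1528 that rose. Among the 1388 that fell it had 57 risen and 684 fallen. Alone thus means without a call in HCC38, and many of these genes moved the same way in SUM149PT. Of the genes called in HCC38 alone, SUM149PT had 87 risen and 35 fallen among the 377 that rose, and 47 risen and 43 fallen among the 353 that fell.

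Mitotic genes gave the plainest contrast between the lines. Of 50 genes of G2 and mitosis, 36 had a higher and 4 a lower response in MDA-MB-468 (13.0% and 13.8% of all genes), with a median interaction of 0.71 against 0.00 over all genes. In MDA-MB-468, 31 of the 50 rose and 6 fell (median 0.35). In HCC38, 1 rose and 28 fell (median −0.29), and in SUM149PT 20 rose and 5 fell (median 0.18). There were 15 that rose in MDA-MB-468 and fell in HCC38, against 1.14% of all genes, namely BUB1, CCNA2, CCNB1, CDK1, CENPE, CKAP2, DLGAP5, KIF11, KIF14, KIF20A, KIF23, PLK1, SGO1, TOP2A and TPX2. This number was 5 to 15 when 1 library was left out. It was 5 without MDA-MB-468 LNA NS replicate 2, 6 without HCC38 RP19 KD replicate 2, 8 without MDA-MB-468 RP19 KD replicate 2 and 9 without replicate 1 of LNA NS of either line, while 29 to 34 of the 50 still had a higher response in MDA-MB-468. With upper-quartile scaling, 36 again were higher, 18 fell and 6 rose in HCC38, and 9 moved in opposite directions.

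Summed over the 50 genes, the level per library went from 6340 and 6230 CPM in MDA-MB-468 controls to 7790 and 8030 in RP19 KD cells, and from 8970 and 8710 down to 7640 and 7310 in HCC38. In SUM149PT it went from 8280 and 8050 to 9300 and 8650. No knock-down library overlapped its controls in any line. In the controls HCC38 had the higher sum, and after knock-down MDA-MB-468 had it. A change in the share of cells in mitosis and a change in transcript per mitotic cell cannot be told apart in bulk RNA.

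Promoters of mitotic genes carry short elements through which they are timed, the CHR (letters TTTGAA) bound by DREAM and B-MYB complexes, and CCAAT boxes (letters CCAAT) bound by NF-Y, each searched on both strands. The 250 bases before the RefSeq start (build GRCh38.p14, a later build than that of the counts) are shown for 6 of the 50 genes. The first 3 hold the CHR letters and rose in MDA-MB-468 but fell in HCC38. CCNB1 and CCNA2 showed the same movement without these letters in the window. Only the exact letters were searched, so their absence does not show that a gene lacks the element. CDC25C holds them but had the lowest interaction of the list. CHR and CCAAT letters are in capitals, the sequences read 5′ to 3′ toward the gene.
PLK1, chr16:23678639-23678888, plus strand: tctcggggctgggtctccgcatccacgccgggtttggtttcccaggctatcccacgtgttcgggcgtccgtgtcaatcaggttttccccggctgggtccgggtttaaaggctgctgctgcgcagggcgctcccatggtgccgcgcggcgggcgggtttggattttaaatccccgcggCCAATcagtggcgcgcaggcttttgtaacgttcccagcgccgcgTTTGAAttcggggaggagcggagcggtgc
CDK1, chr10:60778228-60778477, plus strand: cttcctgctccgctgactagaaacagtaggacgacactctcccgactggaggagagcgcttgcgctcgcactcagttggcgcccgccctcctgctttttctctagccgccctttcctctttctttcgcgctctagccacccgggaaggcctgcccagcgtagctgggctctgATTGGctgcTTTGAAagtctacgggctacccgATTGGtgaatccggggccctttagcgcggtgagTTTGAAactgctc
KIF11, chr10:92592880-92593129, plus strand: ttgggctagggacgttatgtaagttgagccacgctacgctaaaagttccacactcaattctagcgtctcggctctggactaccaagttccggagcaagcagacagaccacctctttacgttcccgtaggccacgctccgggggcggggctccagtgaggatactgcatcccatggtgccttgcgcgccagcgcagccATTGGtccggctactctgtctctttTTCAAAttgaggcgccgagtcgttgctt
CCNB1, chr5:69166900-69167149, plus strand: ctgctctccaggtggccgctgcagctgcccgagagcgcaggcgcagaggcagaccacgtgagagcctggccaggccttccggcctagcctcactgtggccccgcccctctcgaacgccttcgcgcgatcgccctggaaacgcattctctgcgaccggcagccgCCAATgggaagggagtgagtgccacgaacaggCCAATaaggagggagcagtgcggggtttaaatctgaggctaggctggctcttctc
CCNA2, chr4:121823884-121824133, minus strand: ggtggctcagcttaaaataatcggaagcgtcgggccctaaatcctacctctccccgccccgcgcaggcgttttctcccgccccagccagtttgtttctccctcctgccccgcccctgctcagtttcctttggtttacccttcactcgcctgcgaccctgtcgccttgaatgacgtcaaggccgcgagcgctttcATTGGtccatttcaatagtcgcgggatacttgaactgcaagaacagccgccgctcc
CDC25C, chr5:138331805-138332054, minus strand: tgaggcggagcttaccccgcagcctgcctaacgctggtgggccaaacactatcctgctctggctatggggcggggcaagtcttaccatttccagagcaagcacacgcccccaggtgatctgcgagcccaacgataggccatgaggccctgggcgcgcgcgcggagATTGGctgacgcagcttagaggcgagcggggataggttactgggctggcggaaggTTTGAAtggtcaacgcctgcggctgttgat

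Of the 50 genes, 42 had a RefSeq promoter, 52 promoters in all. CHR letters stood in 48.1% of these against 13.3% of all 35116 promoters of the same length, and CCAAT letters in 75.0% against 32.0%. In the promoters of G1/S genes the shares were 2.86% and 58.6%. Among mitotic genes with a higher response in MDA-MB-468, 15 of 29 held CHR letters, against 1 of 4 with a lower response and 7 of 9 that were not called, and the median interaction was 0.52 for the 23 with and 0.81 for the 19 without them.

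Among regulators of mitotic entry, CCNB1, cyclin B1 (chromosome 5, 68462962 to 68474072, GRCh37), had 176 and 163 CPM in LNA NS cells and 282 and 289.5 in RP19 KD cells of MDA-MB-468. In HCC38 it had 234 and 202 against 179 and 173. The groups overlapped in neither line, and the order was turned, for an interaction of 1.07 (SE 0.14, 95% interval 0.77 to 1.36, adjusted p = 1.30e-04 from edgeR's test, as for every adjusted p below). CDK1, the kinase that cyclin B1 activates, went from 124 and 96.1 to 139.7 and 148 CPM in MDA-MB-468 and from 324 and 253 to 212 and 214 in HCC38 (interaction 0.83, adjusted p = 0.0053). In HCC38 its 2 control libraries differed from each other by more than the knock-down libraries did. PLK1, which promotes entry into and passage through mitosis, went from 165 and 167 to 232 and 237 and from 263 and 287 to 234 and 249 (interaction 0.69). CCNA2, cyclin A2, which acts in S phase and G2, followed the same pattern, with 64.2 and 61.6 to 92.3 and 95.9 in MDA-MB-468 and 114 and 102 to 83.0 and 72.6 in HCC38 (interaction 1.05). AURKA, a centrosome kinase, rose in MDA-MB-468 (log2 0.71) and was at −0.04 in HCC38, where it was not called.

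Spindle and chromosome genes had the largest differences. CKAP2, a microtubule-associated spindle protein, went from 52.2 and 51.0 to 109 and 138 CPM in MDA-MB-468 and from 170.0 and 149.8 to 132 and 118 in HCC38, again with no overlap (interaction 1.62, SE 0.16, adjusted p = 1.70e-05). ASPM, a spindle pole protein, rose from 66.2 and 67.5 to 156 and 182 in MDA-MB-468, and in HCC38 its values of 90.1 and 85.2 and 85.2 and 67.5 did not pass the test (interaction 1.53). The kinesin KIF14 rose by 1.12 and fell by 0.35 on the log2 scale in the 2 lines, and KIF20A rose by 0.77 and fell by 0.23. TOP2A, which untangles DNA before division, went from 229 and 229 to 328 and 356 in MDA-MB-468 and from 635 and 618 to 569 and 482 in HCC38. The checkpoint gene MAD2L1 differed in another way, since it fell by 1.03 in HCC38 and was not called in MDA-MB-468 (log2 −0.19). KIF11, whose call was lost without MDA-MB-468 LNA NS replicate 2 (interaction 0.44, against 0.52 with all libraries), and CDC20 (0.31), lost in 5 of the 8 fits with a library left out, were the less certain of those named.

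The 4 exceptions were CDC25C, SPC24, CDC25B and MYBL2. CDC25C, a phosphatase that activates CDK1, had 18.3 and 14.5 CPM in LNA NS cells and 7.43 and 7.67 in RP19 KD cells of MDA-MB-468, and 26.3 and 23.3 against 28.6 and 28.0 in HCC38. It fell in MDA-MB-468 alone (interaction −1.31, SE 0.18, adjusted p = 2.50e-04). CDC25B, of the same family, was the single member that fell in MDA-MB-468 and rose in HCC38 (log2 −0.23 and 0.23). MYBL2, which encodes B-MYB, fell in both lines, by 0.93 and 0.53, and its interaction of −0.40 was not called without MDA-MB-468 RP19 KD replicate 2 (−0.32). The kinetochore gene SPC24 had an interaction of −0.71. Of the 10 members whose response was not called different, AURKB, BIRC5 and PRC1 are examples.

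**Figure D2:**
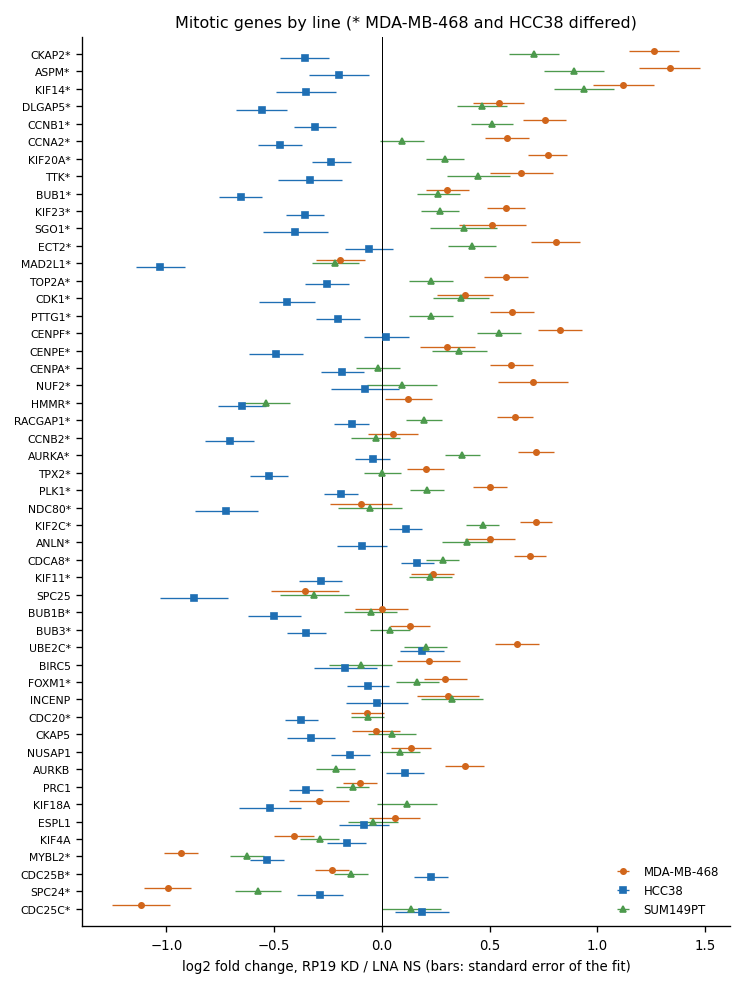
Log2 fold change (RP19 KD over LNA NS) of each of the 50 mitotic genes in MDA-MB-468 (circles), HCC38 (squares) and SUM149PT (triangles), with the standard error of the fit, ordered by the interaction. Circles lie right of squares for 45 of 50 genes, and an asterisk marks the 40 called different.

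The G1/S genes did not share this split. Of 64 E2F targets in replication, 16 had a higher and 14 a lower response in MDA-MB-468, with a median interaction of −0.09. They fell on balance in both lines, 34 falling and 14 rising in MDA-MB-468, and 37 falling and 2 rising in HCC38. Their summed level went from 7710 and 7900 to 6220 and 6170 CPM in MDA-MB-468 and from 8470 and 8130 to 6980 and 6690 in HCC38, with no overlap in either. Within the list the members parted. The replicative helicase subunit MCM3 went from 395 and 410.2 to 165 and 159.8 CPM in MDA-MB-468 and from 232 and 227 to 176 and 170.1 in HCC38 (interaction −0.90, adjusted p = 7.30e-05). POLA2 and PRIM2, subunits of the polymerase-primase that starts each DNA strand, also fell in both lines and more in MDA-MB-468 (interactions −1.0 and −1.31). ORC6 and CDC6, which mark and license origins, had higher responses in MDA-MB-468 (0.89 and 0.65), as did RRM1, a subunit of ribonucleotide reductase (0.66), which rose there and fell in HCC38. TFDP1, the dimerization partner of E2F factors, fell from 323 and 373 to 80.7 and 84.3 CPM in MDA-MB-468 and from 190.4 and 194 to 130.3 and 124 in HCC38 (interaction −1.48, adjusted p = 4.10e-06).

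Chaperone genes also lay on the higher side. Heat shock proteins fold and refold client proteins, and many are induced by the factor HSF1. Of 33 genes of heat shock proteins, their co-chaperones and heat shock factors, mostly cytosolic but with the mitochondrial HSPD1 and HSPE1 among them, 18 had a higher and 4 a lower response in MDA-MB-468, with a median of 0.51. In MDA-MB-468, 16 rose and 5 fell, in HCC38 4 rose and 11 fell, and in SUM149PT 16 rose and 6 fell. With upper-quartile scaling 18 and 4 were again higher and lower, but in HCC38 7 rose and 6 fell, so that the balance within HCC38 turned. Their summed level went from 8430 and 7910 to 9250 and 9280 CPM in MDA-MB-468 and from 10800 and 9770 down to 8310 and 8010 in HCC38. With the main scaling the sums thus moved in opposite directions, as they did for mitotic genes. DNAJB1, HSP90AB1, HSPA14, HSPD1 and HSPH1 rose in MDA-MB-468 and fell in HCC38.

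HSPH1, a co-chaperone of HSP70, had 186 and 187 CPM in LNA NS cells and 313 and 326 in RP19 KD cells of MDA-MB-468, and 369.6 and 330.1 against 299 and 235 in HCC38 (interaction 1.16, SE 0.16, adjusted p = 2.10e-04). HSP90AA1, the inducible HSP90, differed through HCC38, with 1094 and 995 against 949 and 931 in MDA-MB-468 and 2566 and 2186 against 1538 and 1473 in HCC38 (interaction 0.51, adjusted p = 0.011). HSPA8, the constitutive HSP70, had an interaction of 0.67, and HSPD1, the mitochondrial chaperonin, of 0.92. These families have near-identical pseudogenes, which can take or hide reads in counting. DNAJA4 rose from 1.84 and 2.21 to 6.40 and 6.47 CPM in MDA-MB-468, where it was low, while HCC38 held 127 and 133 and 139.5 and 133 (interaction 1.60). The 4 lower genes were HSF1 itself (−0.50), HSPB1 (−0.51), DNAJB2 and HSPB8, the last below 0.2 CPM in MDA-MB-468 and not called without MDA-MB-468 LNA NS replicate 2 (−1.74, against −2.68) or without either knock-down library of that line (−2.29 and −3.22).

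Chaperones of the endoplasmic reticulum leaned the same way. Of 36 genes of this list, 14 had a higher and 2 a lower response in MDA-MB-468, with a median of 0.30. In MDA-MB-468, 14 rose and 7 fell, and in HCC38, 4 rose and 12 fell, which became 7 and 7 with upper-quartile scaling. SUM149PT was here on the side of HCC38, with 6 risen and 11 fallen (median −0.07), unlike for mitotic genes and heat shock proteins. HSPA5 (BiP), the main chaperone of that compartment, had 514 and 504 and 484 and 533 CPM before and after knock-down in MDA-MB-468, and 1111 and 1048 against 796 and 721 in HCC38. The groups overlapped in MDA-MB-468 and did not in HCC38 (interaction 0.51, adjusted p = 0.0085). HSP90B1, which folds secreted and membrane proteins, had an interaction of 0.61, and DERL1, a channel component of the export of misfolded proteins, of 0.77. The count of 14 fell to 6 without MDA-MB-468 RP19 KD replicate 2, to 8 without MDA-MB-468 LNA NS replicate 2 or HCC38 LNA NS replicate 1, and to 9 without HCC38 RP19 KD replicate 2.

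Targets of ATF4 in the integrated stress response include many genes of amino acid uptake and synthesis. Of 40 such genes, 29 rose and 7 fell in MDA-MB-468 and 26 rose and 5 fell in HCC38, against 24.9% and 15.5% of all genes that rose, while 17 had a higher and 5 a lower response in MDA-MB-468 (median 0.17). SLC7A11, the cystine carrier, went from 13.9 and 13.5 to 46.5 and 59.0 CPM in MDA-MB-468, and in HCC38 it had 111 and 107 CPM with LNA NS against 121 and 111 CPM in RP19 KD cells. The HCC38 libraries stood above those of MDA-MB-468 in both treatments and did not differ by the test there (interaction 1.85, SE 0.17, adjusted p = 1.10e-05). Its partner chain SLC3A2 rose in both lines and more in MDA-MB-468, from 606 and 598 to 1497 and 1761 against 736 and 678 to 1034 and 1129 in HCC38. MTHFD2, of mitochondrial one-carbon metabolism, had an interaction of 0.81. ASNS, asparagine synthetase, had 0.65, a call lost without HCC38 LNA NS replicate 1 (0.44), MDA-MB-468 LNA NS replicate 2 (0.55) or MDA-MB-468 RP19 KD replicate 2 (0.51). Without each of these 3 libraries in turn the count of 17 was 11. CHAC1 and PPP1R15A, canonical targets of the pathway, rose in MDA-MB-468 by 2.09 and 1.52 (log2) and by 2.16 and 1.56 in HCC38, and their interactions of −0.07 (95% interval −0.41 to 0.27) and −0.05 (−0.45 to 0.35) were not called. NUPR1, a stress-induced chromatin protein, rose more in HCC38 (−0.81).

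**Figure D3:**
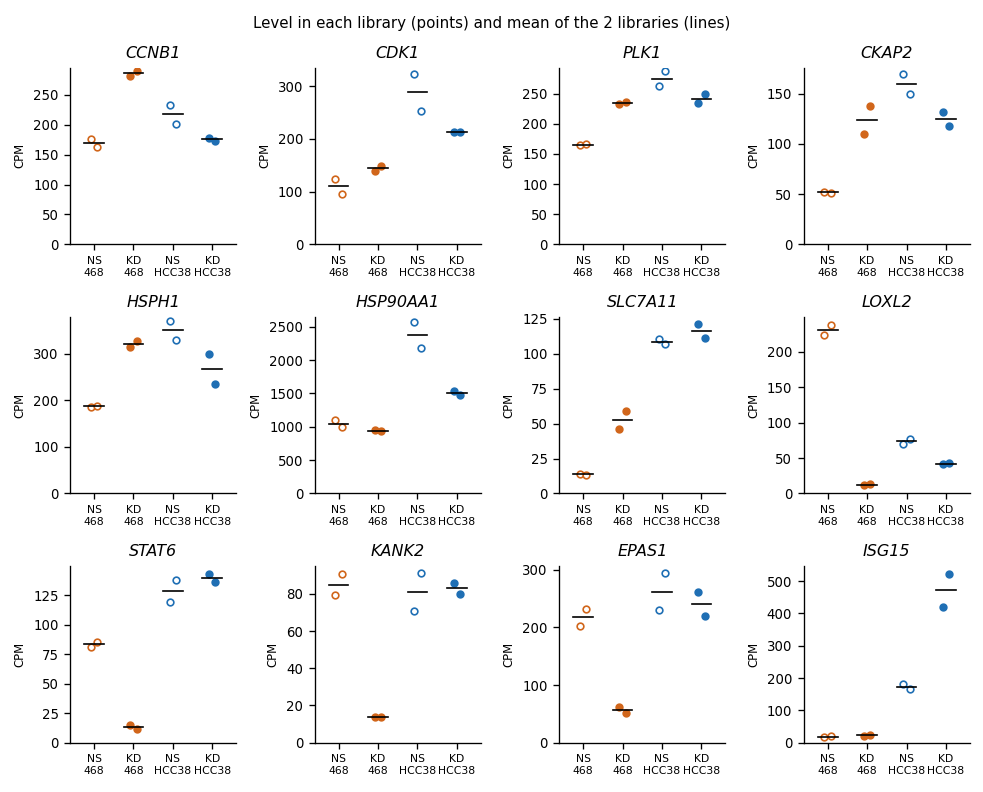
CPM (y axis, from 0) of 12 genes in each MDA-MB-468 (orange) and HCC38 (blue) library, open for LNA NS and filled for RP19 KD, with the mean of the 2 libraries as a line. CCNB1, CKAP2 and HSPH1 are turned in opposite directions, SLC7A11 moves in MDA-MB-468, STAT6, KANK2 and EPAS1 drop in MDA-MB-468, and ISG15 climbs mostly in HCC38.

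On the lower side, genes of great length stood out. Of 25 genes picked for very long spans or fragile sites, none had a higher and 13 had a lower response in MDA-MB-468 by edgeR, with a median of −0.88. DESeq2 gave 0 and 13, limma-voom 0 and 12, and an unadjusted p under 0.05 held for 0 and 13. They fell in both lines, 19 in MDA-MB-468 and 15 in HCC38, and none rose in either. Their summed level went from 720 and 771 to 239 and 231 CPM in MDA-MB-468 and from 781 and 873 to 428 and 357 in HCC38. EXOC4, of the exocyst complex, with a span of 813514 bases, went from 51.5 and 56.0 to 3.96 and 3.46 CPM in MDA-MB-468 and from 71.7 and 74.3 to 15.1 and 13.2 in HCC38 (interaction −1.49, adjusted p = 1.10e-04). WWOX, a tumor suppressor at a fragile site, fell by 2.58 and 1.53 on the log2 scale. PTPRK, a receptor phosphatase, fell by 1.74 and 0.64. FHIT, at another fragile site, fell in MDA-MB-468 from 3.48 and 3.75 to 0.276 and 0.424 CPM, and in HCC38, at 0.197 and 0.0819 with LNA NS, it was too low for a precise ratio.

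Matrix and adhesion genes also lay lower. Of 32 genes of hemidesmosomes, laminins and lysyl oxidases, 3 had a higher and 13 a lower response in MDA-MB-468 (median −0.23). The integrin chains ITGB4 and ITGA3, laminin receptors, fell in both lines and more in MDA-MB-468 (−0.91 and −0.87), and PLOD3, a collagen-modifying enzyme, fell there alone (−1.20). LOXL2, a lysyl oxidase, had the largest difference of the list, falling from 224 and 238 to 12.0 and 12.7 CPM in MDA-MB-468 and from 70.2 and 77.3 to 41.9 and 42.6 in HCC38, without overlap in either (interaction −3.42, SE 0.13, adjusted p = 1.40e-09). The 3 higher genes were COL7A1, the anchoring fibril collagen (1.87, from 7.43 and 8.40 to 30.6 and 28.5 CPM in MDA-MB-468), LOX (1.43) and PLOD2 (0.46). The call for PLOD2 was lost in 5 of the 8 fits with a library left out (0.34 to 0.47 in those).

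Of 42 genes of glycolysis and hypoxia, 3 had a higher and 13 a lower response in MDA-MB-468 (median −0.19). EPAS1, which encodes the oxygen-regulated factor HIF-2α, fell from 202 and 233 to 61.5 and 52.0 CPM in MDA-MB-468 and had 229.7 and 295 against 262 and 219.6 in HCC38, with overlap (interaction −1.81, SE 0.20, adjusted p = 2.60e-05). NDRG1, a hypoxia-induced gene, had an interaction of −1.45. HK1, a hexokinase, fell in both lines, from 291 and 296 to 68.9 and 63.6 and from 181 and 191 to 75.1 and 74.6 (−0.83). Of 40 genes of the PI3K, AKT and mTOR pathway, 16 were lower and 6 higher (median −0.19), among them RPTOR of mTOR complex 1 (−1.05), PIK3R3, a PI3K regulatory subunit (−0.89), and RPS6KA1, an ERK-activated kinase (−0.71). Of 13 protein kinase C genes, 7 were lower and 2 higher (median −0.48), with PRKCE going from 13.5 and 17.9 to 2.72 and 2.00 CPM in MDA-MB-468 and from 15.9 and 18.8 to 10.4 and 9.86 in HCC38 (−1.96). In each of these lists the lower share was above the 13.8% of all genes.

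**Figure D4:**
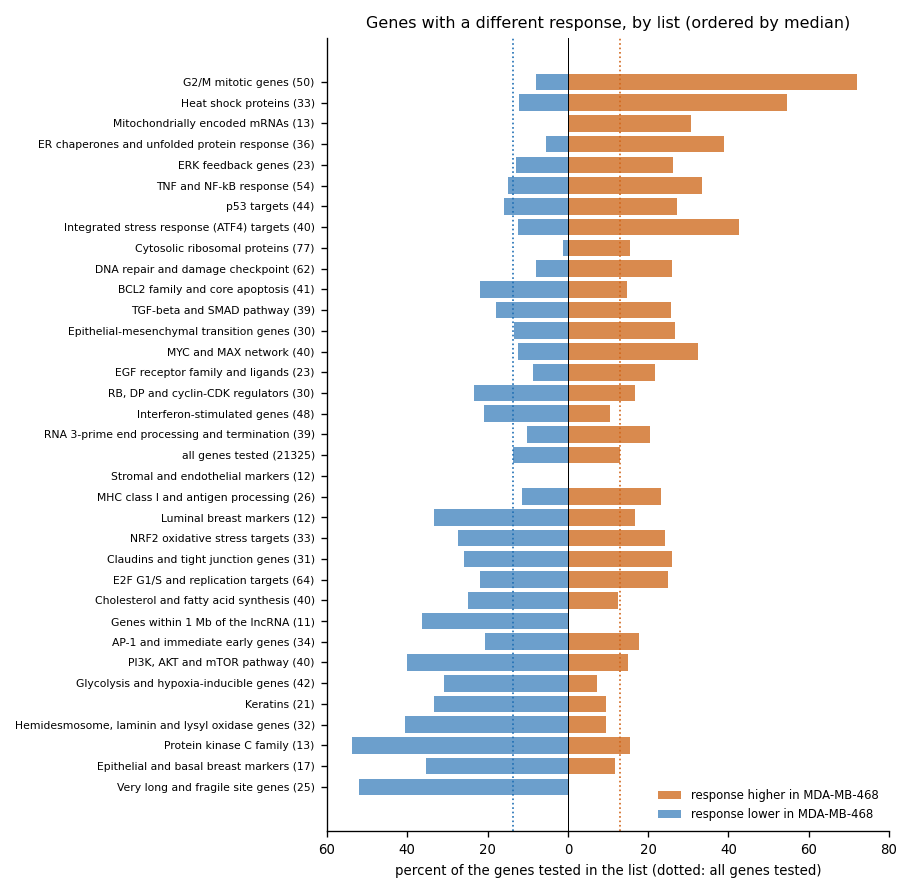
Percent of the genes tested in each list with a higher (orange, right) or lower (blue, left) response in MDA-MB-468, lists of at least 10 genes ordered by their median interaction, with the number tested in brackets. Dotted lines give the 13.0% and 13.8% of all genes. Mitotic genes and heat shock proteins reach furthest to the right, and protein kinase C and very long genes furthest to the left.

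Inflammatory and p53 genes were mixed in direction. Of 54 genes of the TNF and NF-κB response, 18 were higher and 8 lower in MDA-MB-468 (median 0.25). TNFAIP3, the A20 feedback inhibitor, went from 10.4 and 10.4 to 48.4 and 55.7 CPM in MDA-MB-468 and from 28.4 and 32.9 to 62.4 and 60.0 in HCC38, a rise in both lines (interaction 1.32). The chemokine gene CXCL8 rose from 4.42 and 5.24 to 27.3 and 39.9 and from 15.8 and 12.7 to 25.5 and 23.3 (2.02). PLAU, the plasminogen activator urokinase, rose in MDA-MB-468 and fell in HCC38 (1.29), and CXCL1, another chemokine gene, had an interaction of 1.74. Both were over 10 times lower in MDA-MB-468 than in HCC38 in the controls. BCL3 fell in MDA-MB-468 alone (−1.13).

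Of 44 p53 targets, 12 were higher and 7 lower (median 0.18). CDKN1A, which encodes the cell cycle inhibitor p21, had 45.8 and 47.2 CPM in LNA NS cells and 28.0 and 30.8 in RP19 KD cells of MDA-MB-468, and 37.8 and 38.9 against 38.5 and 44.1 in HCC38. It fell in MDA-MB-468 and was not called in HCC38, where the groups overlapped (interaction −0.77, adjusted p = 0.0013). GADD45A, a stress-induced growth arrest gene, rose in both lines, from 134 and 151 to 325 and 439 and from 35.5 and 32.1 to 42.2 and 46.1 (1.04). MDM2, the p53 ubiquitin ligase, rose in MDA-MB-468 (log2 0.76) and was not called in HCC38 (0.23), with an interaction of 0.53.

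Of 48 interferon-stimulated genes, 25 rose and 3 fell in MDA-MB-468 (24.9% and 25.7% of all genes), and 24 rose and 1 fell in HCC38 (15.5% and 18.4% of all genes). By the interaction 5 were higher and 10 lower, with a median of 0.02, against 13.0% and 13.8% of all genes. ISG15, a ubiquitin-like modifier, went from 18.8 and 19.2 to 22.0 and 24.3 CPM in MDA-MB-468 and from 182 and 166 to 421 and 522 in HCC38, a rise in both by the test (interaction −1.15, SE 0.16, adjusted p = 2.50e-04). IRF7, the interferon regulatory factor, was called in HCC38 alone (−1.14). HERC6 lay on the other side, with 5.49 and 5.66 to 10.9 and 12.4 CPM in MDA-MB-468 and 60.8 and 56.4 against 52.7 and 47.6 in HCC38 (1.29). Of 40 genes of cholesterol and fatty acid synthesis, 10 were lower and 5 higher (median −0.12). SCAP, the sterol-sensing escort of SREBP, fell from 99.3 and 90.2 to 25.1 and 24.9 in MDA-MB-468 and from 77.4 and 80.5 to 57.5 and 60.6 in HCC38 (−1.50), while HMGCS1, an early enzyme of the pathway, rose in MDA-MB-468 and fell in HCC38 (0.98). Of 39 TGF-β and SMAD genes, 10 were higher and 7 lower (median 0.11). TGFBI, a secreted adhesion protein, fell by 2.19 in MDA-MB-468 and 0.36 in HCC38, whereas BMP4, a ligand of the family, rose in MDA-MB-468 alone (1.46). Of 62 DNA repair and checkpoint genes, 16 were higher and 5 lower (median 0.13). ATR, the replication stress kinase, fell in HCC38 alone, from 94.2 and 90.4 to 58.3 and 52.2 CPM (0.69), and WEE1, which holds CDK1 inactive, rose in MDA-MB-468 alone, from 47.9 and 45.5 to 91.8 and 102 (0.82).

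Single genes with at least 1 CPM in the controls of both lines could move strongly in one line and be uncalled in the other. STAT6 (chromosome 12, 57489191 to 57525922), the transcription factor of interleukin-4 signaling, had 81.4 and 85.7 CPM in LNA NS cells and 15.1 and 11.2 in RP19 KD cells of MDA-MB-468, and 119 and 138 against 143 and 136 in HCC38. All HCC38 libraries lay above those of MDA-MB-468, and the HCC38 groups overlapped (interaction −2.79, SE 0.17, 95% interval −3.14 to −2.43, adjusted p = 1.80e-07). SUM149PT had 225 and 215 against 212 and 209. KANK2, an adhesion-linked adaptor (chromosome 19, 11274946 to 11308467), went from 79.4 and 90.7 to 13.8 and 13.6 CPM in MDA-MB-468 and had 70.7 and 91.1 against 86.1 and 80.1 in HCC38 (−2.67). SNAPC1, a subunit of the complex that starts small nuclear RNA transcription, rose from 9.46 and 10.2 to 40.5 and 49.1 in MDA-MB-468 and had 17.2 and 14.7 against 16.7 and 15.1 in HCC38 (2.19, adjusted p = 4.70e-06). CLCN4, a chloride-proton exchanger, had an interaction of 2.47, and MEIOC, a meiosis gene, of 2.15. STAT6 and KANK2 were named among protein-coding genes, a limit added after the values were seen, since small structured RNAs held the places before them. Those RNAs took 0.379% and 0.332% of counts in MDA-MB-468 LNA NS, 0.322% and 0.0653% after knock-down, 0.0487% and 0.0702% in HCC38 LNA NS and 0.212% and 0.491% after knock-down. Their part in the result was not tested.

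Among genes that moved in opposite directions, RRP12, a ribosome biogenesis factor, was well measured in both lines. It went from 81.1 and 87.2 to 26.1 and 22.8 CPM in MDA-MB-468 and from 97.3 and 100.3 to 129 and 125 in HCC38, without overlap (interaction −2.15, SE 0.13, adjusted p = 1.80e-07). THSD1, a membrane protein with a thrombospondin domain, went from 0.604 and 0.478 to 3.87 and 3.77 in MDA-MB-468 and from 31.5 and 33.0 to 27.1 and 24.3 in HCC38 (3.14). The largest negative difference among those named was that of ATP13A5, a transport ATPase, with 18.9 and 15.8 CPM falling to 3.61 and 2.47 in MDA-MB-468, and 2 counts rising to 62 in HCC38 (ratio 31.9, exact 95% interval 8.48 to 270.0). CYP4B1, a cytochrome P450, and SEC14L5, a lipid transfer protein, were likewise under 0.4 CPM in every HCC38 library and fell in MDA-MB-468 (−3.91 and −3.34). CDKN2A, named as a check of the lines, stood between 84.4 and 149 CPM in the MDA-MB-468 libraries. HCC38 had 0 counts of it with LNA NS and 2 after knock-down. These counts bear on reads carried from MDA-MB-468 into HCC38 libraries alone, and the other direction was not checked.

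Where both lines moved the same way, SORCS2, a sorting receptor, fell from 12.2 and 13.9 to 0.598 and 0.918 CPM in MDA-MB-468 and from 1.62 and 2.15 to 0.769 and 0.565 in HCC38 (−2.63). A few genes fell more in HCC38. MKLN1, muskelin, went from 31.6 and 34.7 to 20.4 and 17.7 in MDA-MB-468 and from 86.2 and 81.5 to 27.9 and 23.8 in HCC38 (0.90), and UBTD2 and ARHGAP19, a GTPase activator, had interactions of 0.88 and 0.98. BEX2 rose from 0 counts in the MDA-MB-468 controls to 25, at least 7.18-fold higher with 3 counts over the group as the floor, and SPIB, an ETS factor of lymphoid cells, from 1 count to 69 (ratio 59.5, exact interval 10.3 to 2380.0). Both were expressed in HCC38 controls, BEX2 at 19.9 and 16.7 CPM and SPIB at 2.71 and 2.31, and rose there too.

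EGFR, which MDA-MB-468 carries in high amount, had 5056 and 6055 CPM in LNA NS cells and 2967 and 2634 in RP19 KD cells of MDA-MB-468, and 137 and 181 against 169 and 128 in HCC38, where the groups overlapped (interaction −0.89, SE 0.22, adjusted p = 0.01). The intermediate filament VIM and the receptor AXL, both far higher in HCC38, rose in MDA-MB-468 alone (1.01 and 1.03), AXL from 2.11 and 1.89 to 4.60 and 4.07 CPM against 433 and 438 and 487 and 439.9 in HCC38. The keratin KRT17 and FOXA1, a luminal pioneer factor, both far higher in MDA-MB-468, rose in HCC38 alone (−1.24 and −1.14), FOXA1 from 1.55 and 1.76 to 3.86 and 4.12 CPM against 53.9 and 57.6 and 59.6 and 61.5 in MDA-MB-468.

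The response was also set against the starting level. Protein-coding genes were sorted by the ratio of their LNA NS levels in the 2 lines, with 0.1 CPM added. In genes over 8-fold higher in HCC38 (n = 1030), 19.0% had a higher and 5.05% a lower response in MDA-MB-468. In genes over 8-fold higher in MDA-MB-468 (n = 449) these shares were 2.45% and 38.3%. Because the control libraries enter both the ratio and the response, the genes were sorted again by replicate 1 of LNA NS and the response was taken against replicate 2. The median log2 fold change in MDA-MB-468 then ran from 0.16 in the genes over 8-fold higher in HCC38 (n = 1017), through 0.02 in those within 2-fold (n = 8758), to −0.37 in those over 8-fold higher in MDA-MB-468 (n = 473). In HCC38 it ran the other way, from −0.10 through −0.01 to 0.10. In SUM149PT, whose levels did not enter the sorting, the same bins had medians of 0.06, 0.03 and 0.02. A gene near 0 in a line can hardly fall there, so the bins were formed again, after these values were seen, from genes with at least 1 CPM in replicate 1 of LNA NS of both lines. The MDA-MB-468 medians were then 0.01 (n = 160), −0.01 (n = 7639) and −0.42 (n = 183), and those of HCC38 −0.14, −0.04 and 0.02. The lower median of genes over 8-fold higher in MDA-MB-468 was thus also seen there in genes measured in both lines, whereas the higher median at the other end was not. By mean level, with the same minimum in both lines, the shares higher and lower by the interaction were 38.0% and 19.9% (n = 171) in genes over 8-fold higher in HCC38, and 3.98% and 44.9% (n = 176) in those over 8-fold higher in MDA-MB-468.

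Gene span separated the responses too. The 863 genes that fell in both lines and more in MDA-MB-468 had a median span of 84732 bases on the genome, against 21770 over all genes tested. The 74 that fell in both and more in HCC38 were also long (78332.5 bases). Among protein-coding genes alone the medians were 86726.5 and 82763.5 bases, against 32180 over all those tested and 33086 for the 1209 that fell by a call in MDA-MB-468 alone, a class that was thus not long. Among protein-coding genes of 20 to 50 kb (n = 3967), the median interaction was 0.105, with 22.9% higher and 15.6% lower. In genes over 500 kb (n = 211) it was −0.449, with 4.74% higher and 28.4% lower, and the median log2 fold changes were −1.084 in MDA-MB-468, −0.717 in HCC38 and −0.618 in SUM149PT. Genes of up to 5 kb (n = 1401) had medians of 0.075, 0.157 and 0.0.

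**Figure D5:**
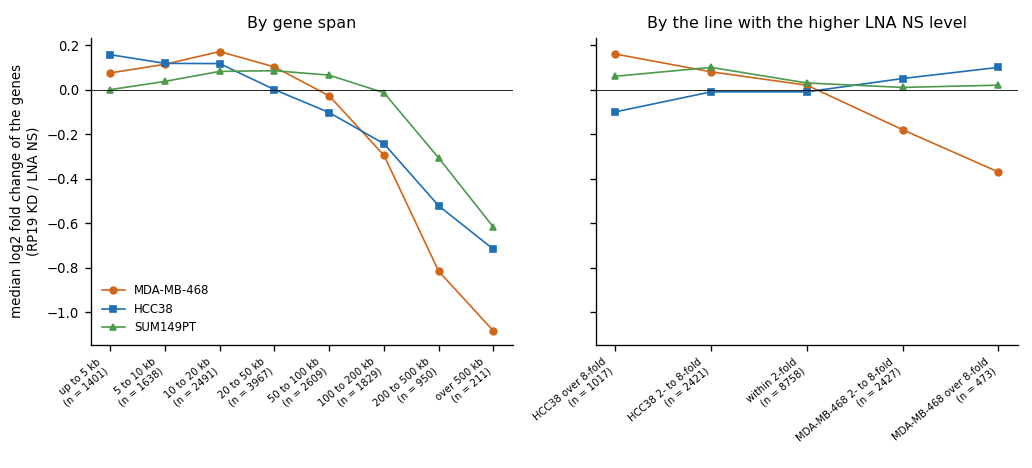
Median log2 fold change (RP19 KD over LNA NS) of protein-coding genes in MDA-MB-468 (orange circles), HCC38 (blue squares) and SUM149PT (green triangles), by gene span on the left and by the line with the higher LNA NS level on the right, where bins come from replicate 1 and responses are against replicate 2 of LNA NS. On the left all 3 lines drop with span, MDA-MB-468 the furthest (−1.084 over 500 kb). On the right the MDA-MB-468 and HCC38 medians cross, and SUM149PT stays between 0.01 and 0.10.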

How the data were processed

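RNA of 12 libraries (2 per line and treatment, 3 lines) was sequenced by the authors after polyA selection. The deposited values are whole-number read counts per Ensembl gene, not normalized. According to the study's methods, reads were aligned to GRCh37 with STAR and counted with HTSeq, while the submitters' processing notes list TopHat2 2.0.13, HTSeq 0.6.0, DESeq 3.0, CASAVA 1.8.4, bedtools 2.17.0 and R 3.1.1, so the aligner of these counts is uncertain. The annotation release, and whether counting used strand, are not given in the sources used here. Summary lines that name no gene held 40.8% to 53.7% of counts and were left out. Gene counts per library ran from 32187835 to 56191152, and a gene with few counts has a wide interval (exact, counting error only).

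The interaction came from edgeR 4.0.16 in R 4.3.3, a quasi-likelihood fit of 6 group means over all 12 libraries (6 residual degrees of freedom, common dispersion 0.0109), with filterByExpr (minimum count 10, minimum total 15) and TMM factors. SUM149PT shared the filter, the scaling and the estimate of spread, and entered no difference between the lines. Calls have a Benjamini-Hochberg adjusted p under 0.1 over 21325 genes. Intervals are 95% intervals of the fit. DESeq2 1.42.0 and limma 3.58.1 (voom), other scalings and filters, and fits without 1 library were alternatives. Scripts were tested on simulated counts. Positions come from GENCODE v44 lifted to GRCh37 (55665 genes matched, the rest held 0.636% of counts), promoters from RefSeq. Python 3.11.15 with numpy 2.4.6, pandas 2.3.3, scipy 1.17.1 and matplotlib 3.10.9 made tables and figures.

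The comparison, the 35 gene lists (1164 genes, 6 without a match, 1114 tested) and the rule for named genes were chosen with earlier results of these data known. The rule took the genes with the largest interactions in each class of movement, with limits on level, up to 3 members a list by adjusted p, and RB1, SMAD4, EGFR and CDKN2A. Some genes that the rule took are not reported here. Other list members were named for their role, after their values were seen. Replicate numbers did not pair the libraries (correlations of their deviations of −0.023 for MDA-MB-468, 0.157 for SUM149PT, −0.247 for HCC38).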

Additional observations from a re-analysis of the deposited data

Results flagged for a closer look

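The effect of the same knock-down differed between the lines by the test of the interaction for 2769 genes higher and 2942 lower in MDA-MB-468, for 1711 genes with more than a 2-fold difference, and for 448 genes that moved in opposite directions. Of the 154 genes chosen by the naming rule, 151 had a different response, but most were chosen by this test, so the number says nothing further. Single libraries that lie apart could not be sought within groups of 2.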

How the results depend on the processing

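With 1 library left out, the genes higher in MDA-MB-468 numbered 1730 to 2546 and those lower 1949 to 2975, those past 2-fold 1204 to 2084, and those moving in opposite directions 186 to 422. Within MDA-MB-468, 4213 to 5323 rose and 4414 to 5532 fell, and within HCC38 2024 to 3271 rose and 2776 to 3878 fell. Of the mitotic genes, 29 to 34 were higher. The fewest higher and lower genes came without MDA-MB-468 RP19 KD replicate 2 (1730 higher, 1949 lower), and 1749 were higher without MDA-MB-468 LNA NS replicate 2, 2024 rose in HCC38 without HCC38 LNA NS replicate 1, and the genes moving in opposite directions were 186 without HCC38 LNA NS replicate 1 or HCC38 RP19 KD replicate 2, 255 without MDA-MB-468 LNA NS replicate 2 and 284 without MDA-MB-468 RP19 KD replicate 2. These fits hold fewer samples, and the lone library of a group is assumed to vary like the others. No call changed sign in any setting, and 1671 to 2762 of the higher and 1894 to 2942 of the lower calls were kept. The 1 reversed gene was MAGI2, not called with all libraries (−0.13), which ranged from −1.13 to 5.43 and took the highest value without MDA-MB-468 LNA NS replicate 1, where the cause was not tested. With DESeq2, limma-voom, other scalings or other filters, the counts of genes in each direction stayed within 1.5 times. Of 260 called single genes tested again, 188 kept their call and direction in every setting. A replicate block within each line gave 2307 higher, 2513 lower, 1563 past 2-fold and 375 in opposite directions. A block with crossed numbers in HCC38, chosen after seeing the data, gave 3119 higher and 3274 lower.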

Other observations

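Over all genes 13.0% were higher and 13.8% lower in MDA-MB-468, against which the counts below are to be read. For protein-coding genes with at least 1 CPM in the controls of both lines, and control levels within 2-fold, these shares were 20.8% and 18.6% (n = 7730). A list of well-expressed genes is closer to the latter in kind. Keratins leaned to the lower side, with 7 of 21 genes lower and 2 higher in MDA-MB-468 (median −0.21), and so did the epithelial and basal markers, with 6 of 17 lower and 2 higher (median −0.58). Of 77 cytosolic ribosomal protein genes, 12 were higher, near the share of all genes, and 1 lower (median 0.14), and of 13 mitochondrially encoded mRNAs, 4 were higher and none lower by edgeR (median 0.36), with 4 and 0 by DESeq2, 6 and 0 by limma-voom, and 6 and 0 at an unadjusted p under 0.05. In the MYC and MAX network 13 of 40 genes were higher and 5 lower, with RRP12 among the lower. AP-1 and immediate early genes rose in both lines, 26 of 34 in MDA-MB-468 and 24 in HCC38, with 6 higher and 7 lower by the interaction. ERK feedback genes had 6 of 23 higher and 3 lower (median 0.29). NRF2 targets were divided, 8 of 33 higher and 9 lower, as were claudins and tight junction genes, 8 higher and 8 lower of 31.

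For the remaining lists, several of them near the 13.0% and 13.8% of all genes, the counts of higher and lower genes were 5 and 2 of 23 for the EGF receptor family, 5 and 7 of 30 for RB, DP and cyclin-CDK regulators, 6 and 9 of 41 for the BCL2 family, 6 and 3 of 26 for MHC class I and antigen processing, 8 and 4 of 30 for epithelial-mesenchymal transition, and 8 and 4 of 39 for RNA 3-prime end processing. Of 11 genes within 1 Mb of the lncRNA, none was higher and 4 were lower by edgeR (median −0.16), as by DESeq2, limma-voom and an unadjusted p under 0.05. Luminal markers had 2 higher and 4 lower of 12, immune markers 1 and 1 of 7, and stromal and endothelial markers 0 and 0 of 12 by edgeR, DESeq2 and limma-voom, against 1 and 0 at an unadjusted p under 0.05.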
